A study of Homo sapiens with 4 samples.

Results

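The hnRNP transcripts examined here are the messages of 10 genes for heterogeneous nuclear ribonucleoproteins: HNRNPU, HNRNPA1, HNRNPA2B1, HNRNPC, HNRNPK, HNRNPM, HNRNPD, HNRNPR, HNRNPH1 and SYNCRIP. They were selected by gene symbol from a list drawn up with earlier results of these data known, so their counts against all genes are a description, and they make up 10 of the 62700 genes of the annotation and 10 of its 20046 protein-coding genes. The study used improved individual-nucleotide crosslinking and immunoprecipitation (iiCLIP) to map RNA positions in contact with PR100-FLAG, a FLAG-tagged chain of proline-arginine dipeptide repeats of the kind made from the C9orf72 repeat expansion of amyotrophic lateral sclerosis and frontotemporal dementia. HEK293T cells, a transformed human embryonic kidney line, were transiently transfected, expressed the peptide for 24 h under 150 ng/ml doxycycline, and were irradiated with UV light at 160 mJ/cm2. All 4 libraries came from this crosslinked condition, with complexes purified by SDS-PAGE in replicates 1 to 3 and with beads in replicate 4. Nothing in the labels says whether the replicates were separate cultures, so their spread may be technical. Libraries of non-crosslinked cells and of the FLAG tag without the repeat were not analysed here, so no background could be set beside these values.

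HnRNPs are abundant nuclear proteins that coat nascent transcripts and take part in splicing, export, localisation and decay of mRNA. Most carry RNA recognition motifs or KH domains next to disordered segments rich in glycine or arginine, and several are known to form or enter phase-separated granules. HNRNPA1 and HNRNPA2B1 are themselves mutated in rare inherited forms of motor neuron disease and multisystem proteinopathy. Many hnRNP genes regulate their own messages. What is measured here is contact of the PR peptide with hnRNP messages, not with hnRNP proteins.

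A crosslinking event is 1 unique cDNA that ended next to a crosslinked nucleotide, and levels are given as counts of events per 1000000 events of the library (CPM). The libraries held between 125694 events (replicate 3) and 604816 events (replicate 2), so that 1 event was worth 7.96 CPM in replicate 3 and 1.65 CPM in replicate 2. As deposited, replicates 3 and 4 hold fewer events than the minimum depth given in the methods of the study, and the cause was not tested. Values of single members in replicate 3 rest on 1 to 54 events. The neurofilament gene NEFM, known to be active in this line, carried 1426 events, whereas the liver, red cell and pancreatic genes ALB, HBB and INS carried 2, 0 and 0. Counting on the wrong strand of the 10 members gave 49 events against 3200 on the right strand.

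The sequences at the largest clusters of events are shown first, because the sequence around the events is what the later comparisons turn on. The authors called clusters of significant crosslinked positions on the 4 libraries together, and 69 of these 5596 clusters lay on the 10 members. Given here are 30 nt of the transcribed strand of GRCh38, taken around the summit of the largest cluster of every member except HNRNPA1, where the summit is the most often crosslinked position and stands after the first 5 nt. Capitals mark GANGA, a purine-rich pentamer in which N stood for A, G or C and not for T. It was searched on the transcribed strand, and neighbouring copies may overlap. The study drew GAAGA from the significant crosslinked sites of this same PR100 dataset, so copies near events are no independent result.
HNRNPU exon 2, chr1:244862625-244862654, minus strand: atattttgagtacattGAAGAgaacaagta
HNRNPA2B1 exon 8, chr7:26193603-26193632, minus strand: cctggatatggcaaccagggtgggggctac
HNRNPH1 exon 6, chr5:179618160-179618189, minus strand: GAGGAgctggctttgaGAGGAtgaggcgtg
HNRNPM exon 5, chr19:8463592-8463621, plus strand: gtgttgttgaattcaagatgGAAGAgagca
HNRNPD exon 5, chr4:82357353-82357382, minus strand: tacctttaagGAAGAAGAaccagtGAAGAa
HNRNPK exon 12, chr9:83971670-83971699, minus strand: gagacctggagaccgttacgacggcatggt
HNRNPC exon 8, chr14:21211414-21211443, minus strand: tggatgatgatgataatGAAGAtcgggggg
HNRNPR exon 8, chr1:23318590-23318619, minus strand: ttgaatatGAGGAtcacaagtcagcagcac
SYNCRIP exon 11, chr6:85614889-85614918, minus strand: caaccagccagattccaagcggcgccagac

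Each of these clusters had its summit in coding sequence, and 6 of the sequences held a GANGA motif. The largest, in HNRNPU exon 2, held 52 events, with 10, 25, 4 and 13 in replicates 1 to 4. The cluster in HNRNPA2B1 exon 8 held 39 events, with 11, 14, 0 and 14. The summits themselves held only 8, 4, 6, 3, 4, 6, 3, 6 and 2 events in the order printed. The place of each window is therefore uncertain. The sequences of HNRNPA2B1, HNRNPK and SYNCRIP showed no copy in the 30 nt, which says only that these letters are not in this window. The HNRNPA1 sequence, not printed, came from a cluster of 15 events with a coding summit and held no copy either. Thus 4 of the 10 members had none. Over all coding summits of protein-coding genes 35% held a GANGA start, counted to 30 nt downstream and not to the 24 nt shown here.

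Another 3 windows are given because they hold dense copies of the motif or because their cluster held events in every library, and they were chosen after the values were seen.
HNRNPU exon 1, chr1:244863842-244863871, minus strand: ggGACGAAGAGGAaggcgcgggcGACGAga
HNRNPU exon 3, chr1:244862491-244862520, minus strand: agccacctgttGAAGAAGAAGAtgaacact
HNRNPA2B1 exon 5, chr7:26196558-26196587, minus strand: gaagttcagagttctaggagtgGAAGAGGA
The HNRNPU exon 1 cluster held 31 events, with 5, 21, 3 and 2 in replicates 1 to 4. The cluster in HNRNPA2B1 exon 5 held 26 events, with 6, 6, 6 and 8. HNRNPU exon 3 carried a smaller cluster of 10 events, with 3, 5, 0 and 2.

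HNRNPU, also known as scaffold attachment factor A, which binds chromatin-associated RNA and regulates splicing, carried the most events of the 10. The gene (ENSG00000153187) lies at chr1:244840638-244864560 on the minus strand. Its events numbered 276, 526, 54 and 218 in replicates 1 to 4, or 826, 870, 430 and 1214 CPM, with a mean of 835 ± 321 CPM (SD, n = 4). It ranked number 6 among the protein-coding genes over the summed libraries, and between number 6 and number 55 within a library.

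HNRNPA2B1, HNRNPD and HNRNPA1 encode related proteins with paired RNA recognition motifs and a glycine-rich tail. HNRNPA2B1 (chr7:26171151-26201529, minus strand), a reader of sorting signals in RNA, carried 102, 238, 52 and 99 events in replicates 1 to 4, a mean of 416 ± 102 CPM (SD, n = 4). Its level lay below that of HNRNPU in every library, although in replicate 3 the counts of 52 and 54 were nearly equal. HNRNPD, or AUF1, which binds AU-rich elements and promotes mRNA decay, lies at chr4:82352498-82374503 on the minus strand and carried 39, 112, 20 and 47 events, a mean of 181 ± 60.9 CPM (SD, n = 4). HNRNPA1 (chr12:54280193-54287088, plus strand), a splicing repressor, carried the fewest, with 18, 43, 6 and 26 events and a mean of 79.4 ± 44.7 CPM (SD, n = 4). In HNRNPA2B1 and HNRNPD the highest value was the beads library and the lowest replicate 1.

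HNRNPC binds uridine tracts of nascent transcripts, HNRNPH1 binds guanine tracts and HNRNPM binds GU-rich RNA. HNRNPC (chr14:21209136-21269494, minus strand) carried 95, 174, 10 and 37 events in replicates 1 to 4, a mean of 214 ± 97.5 CPM (SD, n = 4). HNRNPH1 (chr5:179614178-179634784, minus strand) carried 67, 156, 14 and 42 events, a mean of 201 ± 64.2 CPM (SD, n = 4). HNRNPM (chr19:8444767-8489114, plus strand) carried 81, 86, 12 and 43 events, a mean of 180 ± 73.0 CPM (SD, n = 4). Replicate 3 gave the lowest level of each of these 3.

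HNRNPR and SYNCRIP, also called hnRNP Q, are close relatives with tandem RNA recognition motifs, and both are known in neuronal mRNA transport. HNRNPR (chr1:23303771-23344336, minus strand) had the narrowest spread of the 10, with 52, 99, 21 and 38 events in replicates 1 to 4 and a mean of 174 ± 25.2 CPM (SD, n = 4). SYNCRIP (chr6:85607779-85644063, minus strand) carried 46, 62, 1 and 25 events, a mean of 96.8 ± 61.6 CPM (SD, n = 4). HNRNPK, a KH-domain protein that binds cytosine-rich RNA, lies at chr9:83968083-83980631 on the minus strand and carried 31, 83, 10 and 39 events, a mean of 132 ± 62.1 CPM (SD, n = 4).

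**Figure D1:**
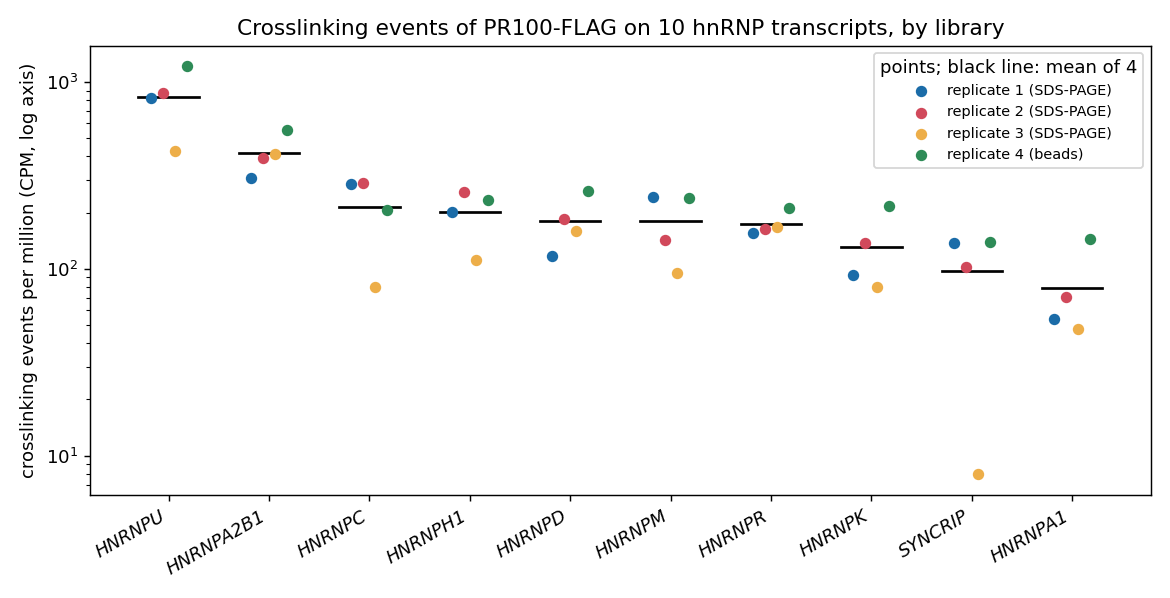
CPM on each hnRNP transcript (log axis), with a point for each of the 4 libraries and a black line at their mean. HNRNPU lies highest in every library and HNRNPA2B1 second, and the other 8 overlap.

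The 10 members together took 807, 1579, 200 and 614 events in replicates 1 to 4, which is 0.251% ± 0.0750 (SD, n = 4) of a library. HNRNPU made up 32.5% ± 3.78 (SD, n = 4) of these events. Over the summed libraries 7 of the 10 reached 200 events, whereas 3.51% of protein-coding genes did. The study used this minimum together with a filter on binding in control libraries. That filter could not be applied here, so reaching 200 events does not make a gene bound by the study's rule. HNRNPK, SYNCRIP and HNRNPA1 stayed below the minimum with 163, 134 and 93 events. The 7 above it included HNRNPM, HNRNPD and HNRNPR at 222, 218 and 210 events, close to the minimum. The count fell to 4 without replicate 1, 2 without replicate 2, 5 without replicate 3 and 4 without replicate 4. RNA abundance was not measured, and in a bulk library more RNA, more cells with the peptide and more contact per RNA cannot be told apart.

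The order of the levels held in every library for the first 2 places, HNRNPU and HNRNPA2B1. HNRNPU exceeded HNRNPA2B1 in 4 of 4 libraries, with a mean log2 ratio of 0.94 ± 0.61 (SD, n = 4, exact two-sided sign-flip permutation p = 0.13). HNRNPA2B1 exceeded HNRNPC in 4 of 4 libraries, with a mean log2 ratio of 1.09 ± 1.02 (SD, n = 4, exact two-sided sign-flip permutation p = 0.13). This p is the smallest that 4 libraries allow. The pairs and their direction were taken from the ranking by mean CPM in these same libraries, so the p-values here are descriptive only. From HNRNPC down to HNRNPA1, the 7 neighbouring pairs kept their order in 2 or 3 of 4 libraries, with exact sign-flip permutation p between 0.25 and 1. Since no pair of neighbours could pass a threshold under 0.13, these p-values do not show that the levels were alike. The mean log2 ratio was smaller than its SD in 6 of these 7 pairs, the exception being HNRNPR over HNRNPK with 0.51 ± 0.49 (SD, n = 4).

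Exonic events per kb of the canonical mRNA gave another order, since the messages differ in length. On this scale HNRNPU stood at 95.4 ± 42.9 CPM per kb and HNRNPA2B1 at 80.8 ± 34.6 CPM per kb (SD, n = 4), so their means differed by less than either SD. By library HNRNPU had 78.9, 104, 48.7 and 150 and HNRNPA2B1 53.6, 77.9, 61.4 and 130. HNRNPU was thus the lower of the pair in replicate 3 alone. HNRNPH1 followed at 54.2 ± 26.3 CPM per kb. HNRNPC, whose events were largely intronic, fell to 22.5 ± 16.2 CPM per kb. HNRNPR, with the longest mRNA of the 10 at 7751 nt, came last with 14.1 ± 6.33 CPM per kb.

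Among 17 other hnRNP and related genes, HNRNPUL1, a relative of HNRNPU, had the most events with 273, followed by the splicing repressor PTBP1 with 240. The range of the 17 was 11 to 273 events with a median of 109, against a median of 220 for the 10 members. Each of the 17 had fewer events than HNRNPA2B1 and HNRNPU.

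The purification of replicate 4 differed from that of the others, and 7 of the 10 members had their highest CPM there. Of the 7 members with at least 200 events these were HNRNPU, HNRNPA2B1, HNRNPD and HNRNPR, or 4 of 7, where 43.4% of protein-coding genes with at least 200 events had their highest value in replicate 4. With 1 library purified with beads, purification and library cannot be told apart.

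Coding sequence took a larger share of the contacts on the hnRNP messages than on protein-coding genes in general. Of the events on the 10 members, 38.8%, 55.0%, 34.0% and 70.0% fell in coding sequence in replicates 1 to 4, a mean of 49.4% ± 16.4 (SD, n = 4), against 28.6% ± 9.69 over all protein-coding genes. The difference within a library was 20.8 ± 7.85 points (SD, n = 4) and had the same sign in 4 of 4 libraries. Introns held 21.1% ± 11.3 of the events of the members and 54.2% ± 11.8 of those of all protein-coding genes (SD, n = 4), and the members minus all genes gave a mean of -33.1 ± 6.25 points, below 0 in each library. Here an event in an exon of any transcript of the gene, retained-intron transcripts included, was not counted as intronic. Outside the exons of the canonical transcript alone lay 35% of the members' events and 60.1% of those of all protein-coding genes, a difference of -25.1 ± 3.30 points (SD, n = 4). The 3′ UTR held 12.4% ± 2.85 and the 5′ UTR 7.27% ± 1.71 (SD, n = 4), against 9.49% and 3.17% over all protein-coding genes. The 3′ UTR difference was above 0 in 3 of 4 libraries and the 5′ UTR difference in 4 of 4.

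The members differed widely among themselves. In HNRNPU 38.8%, 68.8%, 64.8% and 73.9% of the events in replicates 1 to 4 were coding, and 85.2% of the 703 protein-coding genes with at least 200 events had a lower share over the summed libraries. HNRNPM had 58%, 64%, 0% and 83.7%, where the 0% stands for 0 of 12 events in replicate 3, so its summed share of 62.2% did not hold in each library. HNRNPA2B1 had 52.9%, 56.3%, 21.2% and 72.7%. Of the 703 genes, 85.5% had a lower summed coding share than HNRNPM, 78.4% than HNRNPA2B1 and 72.4% than HNRNPR. The portion was 71.1% for HNRNPH1, 67.3% for HNRNPD and 45.4% for HNRNPC. The HNRNPU events called intronic depended on the transcripts counted as exon. They numbered 0, 9, 2 and 2 in replicates 1 to 4 with every transcript, whereas 95, 93, 12 and 33 lay outside the exons of the canonical transcript. Of the latter, 156 lay beyond the ends of the canonical transcript, and 15.8% of all HNRNPU events fell in exons of its transcripts that are not protein-coding. HNRNPA1 carried 38.7% of its 93 events in the 3′ UTR, and all 6 of its events in replicate 3 were there.

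HNRNPC was the exception, with 180 of its 316 events in introns. Its coding share of 20.9% was below the median of 25.5% over the 703 genes. Intron 2 (chr14:21234230-21263310), of 29081 nt, held 56, 64, 0 and 11 events in replicates 1 to 4. Its density of 4.50 events per kb was below the 72.6 events per kb of the coding sequence. A cluster at chr14:21259262-21259339 in this intron held 15 events, from replicates 1 and 2.

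Per length, the coding sequence was the densest large region. HNRNPU carried 266 events per kb in coding sequence and 37.6 in the 3′ UTR of its canonical mRNA, and HNRNPA2B1 264 and 21 (summed libraries). In HNRNPU the coding density by library was 43.2, 145, 14.1 and 63.8 events per kb, and the 3′ UTR density 17.6, 14, 1.69 and 4.33. In HNRNPR the ratio of the densities was the largest, 14.6, and in HNRNPH1 the smallest, 2.18. The median ratio was 5.87 over the 10 members and 2.82 over the 628 genes with at least 200 events and events in the 3′ UTR. Coding density exceeded 3′ UTR density in 4 of 4 libraries for 6 of the 10 members, namely HNRNPU, HNRNPA2B1, HNRNPC, HNRNPD, HNRNPR and HNRNPH1. Of the 7 members with at least 200 events 6 did so, against 43.8% of the protein-coding genes at that minimum. Members and other genes were not matched for exonic events, on which both densities rest. HNRNPA1, HNRNPK, HNRNPM and SYNCRIP fell short in replicate 3, where they had 1 to 12 events, and without that library the count was 10 of 10.

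The 5′ UTR was dense in several members but rested on few events. In HNRNPK it held 124 events per kb, above the coding density of 60.2, from 21 events. In HNRNPA2B1 a cluster at the transcript start (chr7:26200652-26200752) held 24 events, with 0, 7, 15 and 2 in replicates 1 to 4, so the shallowest library gave most of it. Replicate 3 placed 28.8% of its HNRNPA2B1 events in the 5′ UTR, whereas the other libraries placed between 0% and 5.04% there.

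Within HNRNPU, the contacts of replicates 1, 2 and 4 were spread over the coding sequence, whereas replicate 3 had 0 events in exon 3 and in exons 5 to 13. Exon 2 was the densest of the exons, with 446 events per kb in 112 nt, followed by exon 10 with 361 and exon 6 with 310. Exon 1 (chr1:244863617-244864543), which holds the 5′ UTR and the start of the coding sequence, had the most events, 208. Its share of HNRNPU events was 7.61%, 22.6%, 55.6% and 17.4% in replicates 1 to 4. The 95% Wilson interval of replicate 3, 42.4% to 68.0%, did not overlap those of the other libraries, and intervals of this kind cover counting error only. Exon 14, almost wholly 3′ UTR, took 28.3% of HNRNPU events in replicate 1 and 8.72% to 13% in the others. The libraries thus differed in where along this message their events lay. The intervals treat each event as an independent draw, whereas replicate 3 had 125694 events at only 58219 positions. Whether the gap exceeds counting error was therefore not tested.

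**Figure D2:**
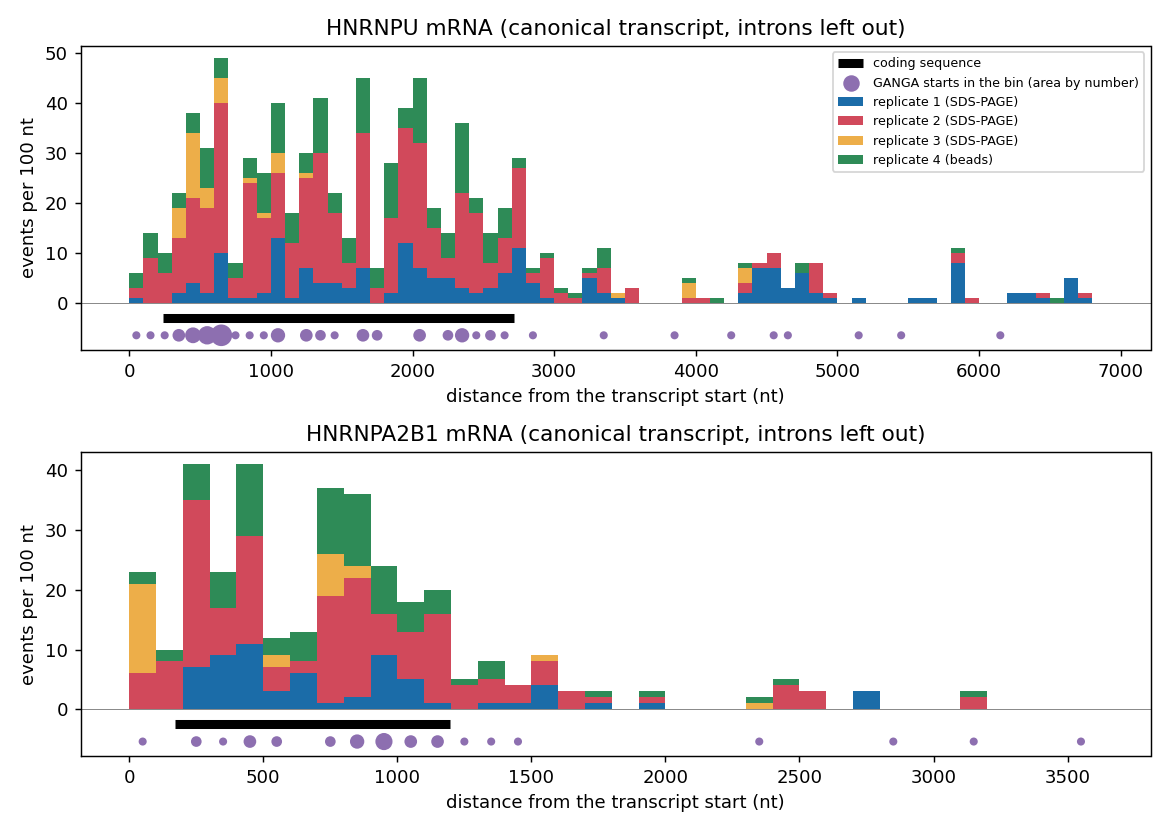
Events in bins of 100 nt along the HNRNPU and HNRNPA2B1 mRNAs, stacked by library, against distance from the transcript start (nt), with the coding sequence as a black bar and GANGA starts as dots. Events are concentrated over the coding sequence in both, at 266 and 264 events per kb, and thin out over the 3′ UTR.

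In HNRNPA2B1, exons 2 to 8 each carried between 227 and 333 events per kb, and exon 11, which is 3′ UTR, 20.7 events per kb. The part with the most events was intron 1, with 20, 33, 4 and 2 events, all of its length being exon in a transcript annotated as a retained intron. In HNRNPR the long exon 11 held 61 events at 9.56 per kb, and exon 4 held 13 events at 120 per kb. HNRNPD exon 1 held 51 events, 31 of them in replicate 2.

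Clusters were concentrated on HNRNPU with 23 of the 69 and on HNRNPA2B1 with 11. HNRNPC and HNRNPD held 7 each, HNRNPM 6, HNRNPK 5, HNRNPH1 4, HNRNPR 3, SYNCRIP 2 and HNRNPA1 1. Each of the 7 members with at least 200 events held a cluster, as did 75% of protein-coding genes at that minimum. Summits lay in coding sequence in 54 of the 69, in the 3′ UTR in 6, in the 5′ UTR in 5, in other exons in 2 and in introns in 2. Events from at least 3 libraries were present in 56 clusters and from all 4 in 10. The lists called on single libraries held 8, 32, 2 and 7 clusters on the members in replicates 1 to 4, the most in the deepest library.

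A larger share of the events on hnRNP messages lay inside clusters than over protein-coding genes in general. The shares were 32.2%, 43.4%, 29.5% and 44% in replicates 1 to 4, a mean of 37.3% ± 7.50 (SD, n = 4), against 10.7% ± 5.31. The difference was 26.5 ± 10.6 points (SD, n = 4) and was above 0 in 4 of 4 libraries. Over protein-coding genes with at least 200 events the share was 20.1% ± 7.15, with a difference of 17.2 ± 10.7 points (SD, n = 4) that was 1.32 points in replicate 3. The clusters were called on these same events, and members and other genes were not matched for exonic events. The differences therefore cannot be read as a trait of hnRNP messages. By member the summed share ran from 16.1% in HNRNPA1 to 52.3% in HNRNPA2B1.

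GANGA motifs were frequent near the events. The study had found GAAGA enriched in this same window around crosslinked sites of these data. An excess was therefore set in advance, and the values only describe how it was spread over members and libraries. A GANGA beginning from 5 nt upstream to 30 nt downstream was found at 36.8%, 41.7%, 31.8% and 36.9% of exonic events of the members in replicates 1 to 4. Of all exonic positions of the same messages, weighted by events, 19.8% had one, so the excess was 17 ± 4.25 points (SD, n = 4). Over all protein-coding genes with at least 200 events the excess was 9.58 ± 2.17 points. These genes were not matched to the members for the share of events in coding sequence, where the motif is common. Their excess within coding sequence alone is not given here, so the gap between the excesses cannot be read as a stronger preference on hnRNP messages. HNRNPA2B1 had the largest share, with a motif at 190 of 349 exonic events, or 54.4% (95% Wilson interval 49.2 to 59.6), against 23.3% of positions. In HNRNPU it was 363 of 841, or 43.2% (39.9 to 46.5), against 20.9%, and in HNRNPR 57 of 133, or 42.9% (34.8 to 51.4), against 12.7%. SYNCRIP, with 25.4% against 24.7%, had no detectable difference at this depth.

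The excess was positive in 4 of 4 libraries in 5 of the 10 members, HNRNPU, HNRNPA2B1, HNRNPC, HNRNPD and HNRNPR. These are 5 of the 7 with at least 200 events, against 17.1% of protein-coding genes at that minimum. The minimum counts all events, whereas the excess rests on exonic events, for which members and other genes were not matched. The median intron share was 52.8% over the genes at that minimum, and the 7 members ran from 1.21% in HNRNPU to 57% in HNRNPC. HNRNPC and HNRNPD rest on 3 and 4 exonic events in replicate 3. HNRNPR had 8 exonic events there, and its exon 8 cluster held 6 events of that library. Without replicate 3 the count was 8 of 10. In HNRNPU the shares by library were 37.0%, 48.0%, 23.8% and 42.2%. In HNRNPA2B1 they were 49.2%, 56.7%, 57.1% and 52.9%, all far above the 23.3% of positions.

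The excess was smaller within coding sequence, where the motif is common. Of the 268 GANGA starts in the 10 mRNAs, 210 lay in coding sequence. Within coding sequence alone, 45.4% of events and 38.9% of positions had a motif near, an excess of 6.50 ± 5.83 points (SD, n = 4), with 10.3, 12.6, 0.70 and 2.41 in replicates 1 to 4. HNRNPA2B1 was then the 1 member with an excess in 4 of 4 libraries, at 59.3%, 64.9%, 90.9% and 55.6% of coding events against 54.4% of coding positions. The counts were 32 of 54, 87 of 134, 10 of 11 and 40 of 72, so replicate 3 rests on few events and replicate 4 lay barely above. In HNRNPU the coding shares were 55.1%, 55.8%, 28.6% and 48.1% against 43.0%, with replicate 3 below. HNRNPM had a motif at 56 of 138 coding events, or 40.6%, against 23.3% of coding positions, and lay above in the 3 libraries in which it had coding events.

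At cluster summits, 28 of the 69 windows of the members, or 40.6%, held a GANGA start, and 27 of the 54 with a coding summit, or 50%. Over coding summits of protein-coding genes the share was 35%, or 908 of 2595, and over summits in any region of these genes 27%, or 1089 of 4026. HNRNPU exon 1 and HNRNPD exon 5 each had 4 starts in this window, which reaches 30 nt downstream. It extends past the letters printed above, and for HNRNPD not all 4 starts are in the printed sequence. The motif was itself drawn from significant sites of these data.

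Aspartate and glutamate codons, the acidic codons, contain GA at their start and were counted 12 nt downstream of coding events. Over the members 14.9% ± 4.59 of coding events had one and 13.9% of codons were acidic, an excess of 1.0 ± 4.22 points (SD, n = 4) that changed sign between libraries. Over protein-coding genes with at least 200 events the excess was 4.59 ± 0.92 points (SD, n = 4). HNRNPC, whose C-terminal region is rich in acidic residues, had an acidic codon at 24 of 64 coding events, or 37.5% (95% Wilson interval 26.7 to 49.7), against 19.8% of its codons. HNRNPU had one at 15.1%, 24.2%, 25.7% and 13.3% of coding events in replicates 1 to 4, on both sides of the 15.5% of its codons. HNRNPA2B1 went the other way, with 17 of 269, or 6.32% (3.98 to 9.89), against 10.9%, and lay below in 3 of 4 libraries. HNRNPA1 had 0 of 43, or 0% (95% Wilson interval 0 to 8.20), against 9.68% of its codons.

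Some of these values cannot be given to 1 gene with certainty. HNRNPA1 shares all 93 of its events with an overlapping long non-coding gene on the same strand, and SYNCRIP all 134 with a readthrough gene that contains it. The members have 98 annotated pseudogenes, which carried 91 events, and reads that matched a message and a pseudogene equally well were dropped by the unique-mapping filter. HNRNPA1 is the most exposed, with 74 pseudogenes that carried 50 events. Its level is therefore uncertain.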

How the data were processed

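The data were 4 iiCLIP libraries of crosslinked PR100-FLAG HEK293T cells, a single group, and no conditions were compared. The authors demultiplexed with iMaps, collapsed PCR duplicates by random barcode (7 nt, and 5 nt in replicate 3), mapped them with STAR to GRCh38 allowing 2 mismatches, kept unique mappers and took the preceding nucleotide as crosslinked. The deposited values are raw counts, 1 per unique cDNA, at each stranded position, together with counts over clusters called by iCount at a false discovery rate of 0.05. The deposited pooled list equalled the sum of the libraries at every position.

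Events were assigned by strand to genes of GENCODE 44 on GRCh38, which differs from the annotation release used by the authors. Where an event fell in several regions of its gene, coding sequence came before 3′ UTR, then 5′ UTR, other exon and intron. CPM is counts per 1000000 events of the library. Densities and motifs used the canonical transcript. Values are given per library with the mean and SD, and neighbouring levels were compared with an exact sign-flip permutation test. Libraries held 334057, 604816, 125694 and 179636 events, so a floor of 3 events lies at 8.98, 4.96, 23.9 and 16.7 CPM. Gene counts were checked with bedtools 2.31.1 (40 of 40 identical), and planted motif excesses were recovered in tests on simulated data. The alternatives tried were other transcript sets, motifs, windows, minima and cluster lists, each position counted once, and leaving out HNRNPU or each library in turn. The named genes are the 10 members, the 3 of 17 other hnRNP genes with the most events (1 is not reported here), and 6 marker genes, of which NEFL (165 events) and PTPRC (10 events) are the rest. The members and lists were chosen with earlier results of these data known. Software was pysam 0.24.0, scipy 1.17.1, pandas 2.3.3, numpy 2.4.6 and matplotlib 3.10.9 under Python 3.11.15.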

Additional observations from a re-analysis of the deposited data

Results flagged for a closer look

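Of 28 sets of 4 library values examined for a value standing far from the others, 1 did so, and chance alone gives about 1 in 20. The excess of GANGA near exonic HNRNPM events was -20.6 points in replicate 3 and between 14.5 and 21 points in the other libraries. Replicate 3 had 1 exonic HNRNPM event, with no motif near it.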

How the results depend on the processing

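Of 82 alternative values of 12 results, 61 kept their direction and moved by less than the SD between libraries or, for counts, by less than 1.5 times. The number of members with at least 200 events was 3 with each position counted once, 2 at a minimum of 400, and 2 to 5 with 1 library left out. Inside pooled clusters the coding share was 77.8%, the intron share 3.99% and the 3′ UTR share 6.97%. With the canonical transcript alone the intron share was 35.0%, and with transcripts of every type the 3′ UTR share was 15.5%. Members with coding density above 3′ UTR density in every library numbered 6 to 10 with 1 library left out. Clusters of at least 20 events numbered 23 and held 20.1% of member events, and the lists of single libraries held 18.1%. The GANGA excess was 11.2 points for GAAGA alone and 6.50 points in coding sequence. The count of members with that excess in every library was 1 in coding sequence and 5 to 8 with 1 library left out. The excess of acidic codons turned negative at the event itself (-1.83 points) and without HNRNPU (-1.44 points), and ran from -0.74 to 2.60 points with 1 library left out, negative without replicate 3. The cause of these changes was not tested. Depth limits replicate 3 most, where SYNCRIP had 1 event.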
